A study of Mus musculus with 2 samples.

Results

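The endoplasmic reticulum (ER) is where a hepatocyte makes and folds the plasma proteins it secretes. This section describes the genes placed by the annotation in the KEGG map of protein processing in the ER, but not in that of the spliceosome, which are 160 of 34745 genes listed. The exception for the spliceosome leaves out 5 heat shock genes of the Hsp70 family. The members were divided by their known function into 39 chaperones and foldases, 12 genes of glycosylation, 29 of the translocon and of export, 27 of the unfolded protein response (UPR) and 53 of degradation.

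Poly(A) RNA of liver was sequenced from male mice, 8 to 10 weeks old, after partial hepatectomy (PH), an operation that removed 70% of the liver. The KO mice carry a knockout of miR-182-5p, which the study describes as heterozygous, and the WT mice are their controls. Both groups underwent PH, and by the paper the livers were taken on day 3. There was 1 library per genotype and the number of mice behind each is not stated, so no difference below has a replicate check and none was tested between genotypes.

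Proteins enter the ER through the Sec61 translocon, receive N-linked glycans from the oligosaccharyltransferase, and fold with the help of chaperones such as BiP (Hspa5) and of disulfide isomerases. Folded proteins leave in COPII vesicles, while misfolded ones are pulled back into the cytosol, ubiquitinated and degraded, a route called ER-associated degradation (ERAD). When misfolded proteins accumulate, the sensors IRE1 (Ern1), PERK (Eif2ak3) and ATF6 set off the UPR, which in liver is known to raise chaperone and ERAD genes.

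Total counts were 13247497 for KO and 13163348 for WT, of which 13 mitochondrially encoded mRNAs took 51.7% and 31.0%. Libraries were therefore compared after TMM scaling, which limits the weight of the most abundant genes. Each log2 fold change is KO over WT, and the interval after it is the exact 95% binomial (Clopper-Pearson) interval, which covers counting error only. Where a pair of counts is given, KO stands first and WT second, the value after it is the log2 fold change, and coordinates are those of the authors' table (GRCm38). With scaling by total counts instead, the middle of all genes lay at a log2 fold change of −0.60 and not at 0.00, so all values here are relative to the bulk of the genes, and 53 members that were above 0 after TMM were then below 0. The targeted gene, Mir182, was not analysed here, so the labels were not checked on it. The 7 hepatocyte markers summed to 51500 CPM (edgeR's library-size-normalized count, here with TMM scaling) in KO and 50700 in WT, with a median of 0.05. Markers of 3 non-parenchymal cell types were mostly lower in KO, with 6 of 7 stellate cell genes below 0 (117 and 168 CPM in sum, median −0.51), 7 of 7 Kupffer cell and macrophage genes (115 and 164 CPM, −0.86) and 5 of 6 endothelial genes (64.9 and 80.0 CPM, −0.44), and no gene of these lists was at 0. Cholangiocyte markers went the other way, with 4 of 5 above 0 (164 and 125 CPM, 0.40, or −0.20 by total counts). Most of that sum was Spp1 (1638 and 1875 counts), while Krt19, Krt7 and Epcam had 26 counts or fewer in each library. In bulk liver, fewer cells of a type and less RNA per cell cannot be told apart, and the part of these markers in the values below was not tested.

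Of the 160 members, 149 had at least 10 counts over both libraries and were compared, with a median of 806 counts over both against 229 for all genes compared. Another 9 members, among them Sel1l2, Lman1l and Mapk10, had 0 counts in both libraries. Fbxo2 (0 counts in KO and 2 in WT) and Bag2 (2 and 0) lay under the floor of 3 counts, so no fold is given. The map as a whole lay at the middle of all genes. Its median log2 fold change was −0.003, beside 0.0008 for all 13561 genes compared, with 74 members above 0 and 75 below, and 107 of the 149 lay within 0.5 of 0.

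At least 2-fold higher in KO were 11 of the 149 members (7.38%), beside 9.46% of all genes compared. At least 2-fold lower were 6 members (4.03%), beside 9.94% of all genes. Many of the other genes had few counts. With at least 100 counts over both libraries, 8 of 138 members (5.80%) were 2-fold higher, beside 4.95% of 9322 genes, and 6 (4.35%) were 2-fold lower, beside 5.94%. These shares were near or below those of all genes. Scaled by total counts, 4 members were 2-fold higher and 30 lower, while among all genes the share of higher ones in those past 2-fold went from 48.8% to 14.8%. All 11 higher members stayed above 0 on that scale.

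**Figure D1:**
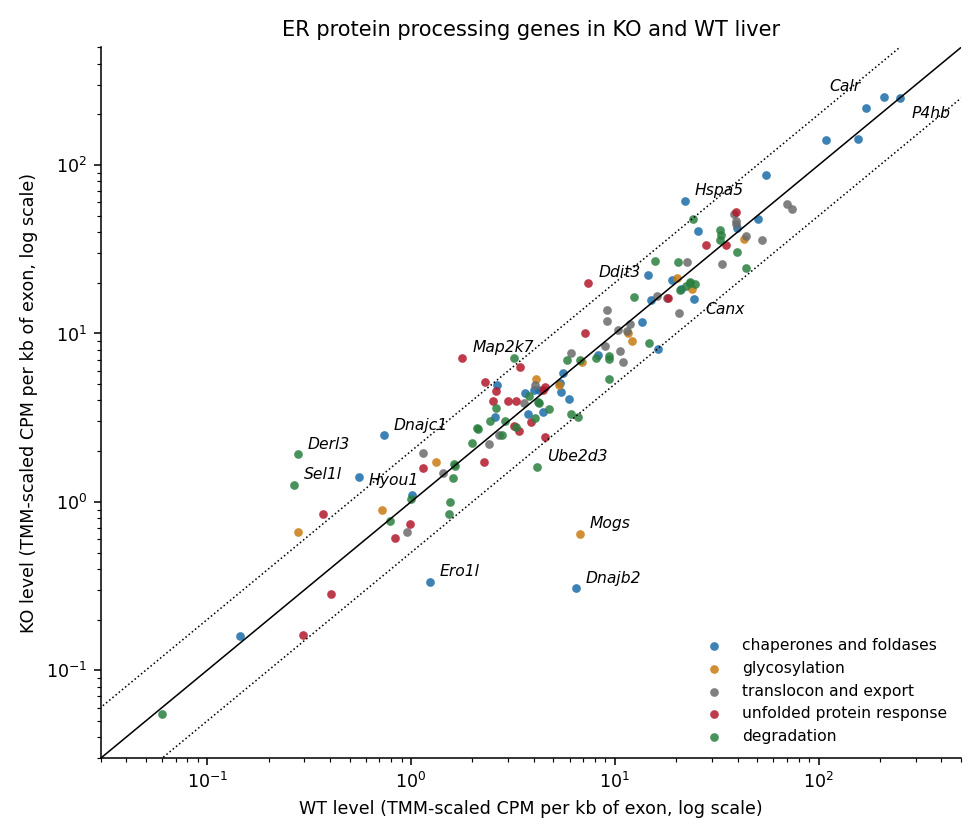
Level of each of the 149 members in WT (horizontal) and KO (vertical), as TMM-scaled CPM per kb of merged exon on log axes, coloured by role. The solid line marks equal levels and the dotted lines a 2-fold difference; most members lie between the dotted lines, with Derl3, Sel1l, Map2k7, Dnajc1, Hspa5 and Ddit3 above and Dnajb2, Mogs, Ero1l and Ube2d3 below.

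The most abundant members were the same in both libraries. Per kb of exon, WT levels were highest for P4hb, the protein disulfide isomerase that introduces disulfide bonds, at 250.1 CPM per kb in WT and 249.6 in KO. Calr (calreticulin, a lectin chaperone) was at 209 in WT and 253 in KO, and Hsp90b1 (GRP94, the ER member of the Hsp90 family) at 170 and 217. Hsp90ab1, a cytosolic Hsp90 that the map also holds, was at 155 and 143, and Pdia3 (ERp57, which works with calreticulin) at 109 and 141. The plot of levels shows these genes at the top right, close to the line of equal levels. At its lower left lie ERAD genes of low abundance, such as Derl3 and Sel1l, which were under 0.3 CPM per kb in WT.

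Among the chaperones and foldases, 3 of 35 genes compared were 2-fold higher and 3 lower (8.57% each, beside 9.46% and 9.94% of all genes). These shares were near those of all genes, and the median was 0.09 (−0.52 by total counts). The lumenal chaperones had the highest median of the 13 groups shown in the plot of genes by step. Of 8, 3 were 2-fold higher (37.5%, beside 9.46% of all genes and 4.95% of those with at least 100 counts). None was lower, beside 9.94% of all genes and 5.94% of those with at least 100 counts. In all, 6 were above 0, and their median was 0.48, which turns to −0.12 by total counts with 4 of the 8 still above 0. A broader list of other lumenal chaperones and foldases, outside the map, had 3 of 34 higher (8.82%) and a median of −0.08. That list also holds isomerases and other lumenal proteins, so it is not matched to these 8. Hspa5 (BiP, the lumenal Hsp70 and a regulator of the UPR sensors; chr2:34771970-34777547) had 2783 counts in KO and 1508 in WT. Its log2 fold change was 1.48 (1.39 to 1.57), or 2.78-fold, and 0.87 by total counts. Dnajc1, a J-domain protein of the ER membrane that works with BiP (chr2:18195654-18392830), had 311 counts in KO and 139 in WT, a log2 fold change of 1.75 (1.46 to 2.05). Opposite it runs Mllt10, whose exons cover 6.43% of its own. Hyou1 (GRP170, which releases ADP from BiP; chr9:44379490-44392369) had 109 and 65 counts, which gave 1.33 (0.88 to 1.80).

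The other lumenal chaperones differed less. Dnajb11, another partner of BiP, had 772 counts in KO and 761 in WT, a log2 fold change of 0.61 (0.47 to 0.76). Hsp90b1 had 9406 and 11137 counts, at 0.35 (0.31 to 0.39), which turns to −0.25 by total counts. The intervals of Dnajc3 (879 and 1257 counts, 0.08), Dnajc10 (273 and 435, −0.08) and Sil1 (277 and 460, −0.14) included 0. So Hspa5 was apart from Hsp90b1, although both are classical targets of the UPR, and their counting intervals did not overlap.

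Of the 6 genes of the calnexin and calreticulin cycle, none passed 2-fold and the median was 0.13 (−0.47 by total counts). Its lectins lay on opposite sides of 0. Calr had 7829 counts in KO and 9757 in WT, a log2 fold change of 0.27 (0.23 to 0.32), whereas Canx (calnexin, its membrane-bound counterpart) had 811 and 1853 counts and −0.60 (−0.72 to −0.48). By total counts Calr also turns below 0, and the distance between both genes does not change.

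The 8 disulfide isomerases and oxidases had a median of 0.04 (−0.56 by total counts). None was 2-fold higher, beside 9.46% of all genes, and 2 were lower (25.0%, beside 9.94%). Pdia4 (ERp72) had 2242 and 2137 counts, at 0.66 (0.58 to 0.75), and Pdia3 had 4747 and 5537, at 0.37 (0.31 to 0.43). P4hb, with 7679 and 11603 counts, was at −0.003 (−0.04 to 0.04). Ero1l (ERO1α, the oxidase that recharges P4hb) had 19 counts in KO and 106 in WT, a log2 fold change of −1.87 (−2.68 to −1.17). Ero1lb, the related oxidase, had 316 and 392 counts, at 0.28 (0.06 to 0.50) by TMM and −0.32 by total counts. Txndc5 (ERp46, an isomerase with several thioredoxin domains) had 393 and 1193 counts, and at −1.01 (−1.18 to −0.84) lay just past the 2-fold line.

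Of 13 cytosolic chaperones and cochaperones, none was 2-fold higher, beside 9.46% of all genes. Dnajb2 (a J-domain protein that binds ubiquitin; chr1:75236406-75245692) was the lowest member of all, with 14 counts in KO and 445 in WT, a log2 fold change of −4.36 (−5.28 to −3.64) or 20.5-fold lower. No 51-base word of its longest transcript occurs in another gene, and it overlaps no other annotated exon. Hsph1 (HSP110) was the highest of the group at 0.91 (387 and 310 counts), followed by Hsp90aa1 at 0.68 (1726 and 1627 counts), which shares 58.3% of its words with other genes and is uncertain for that reason. Of the 5 Hsp70 genes left out by the rule, 3 were 2-fold higher (60.0%, beside 9.46% of all genes). With at least 100 counts, 1 of 2 was, beside 4.95%. The inducible Hspa1a (43 and 21 counts, 1.60) and Hspa1b (112 and 74, 1.18) are near-identical copies whose reads may be split between them. They are thus not separate observations. The other was Hspa1l (8 and 5 counts, 1.18), whose interval reaches from −0.52 to 3.23. The constitutive Hspa8 had 6807 and 10433 counts, at −0.02 (−0.07 to 0.02).

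**Figure D2:**
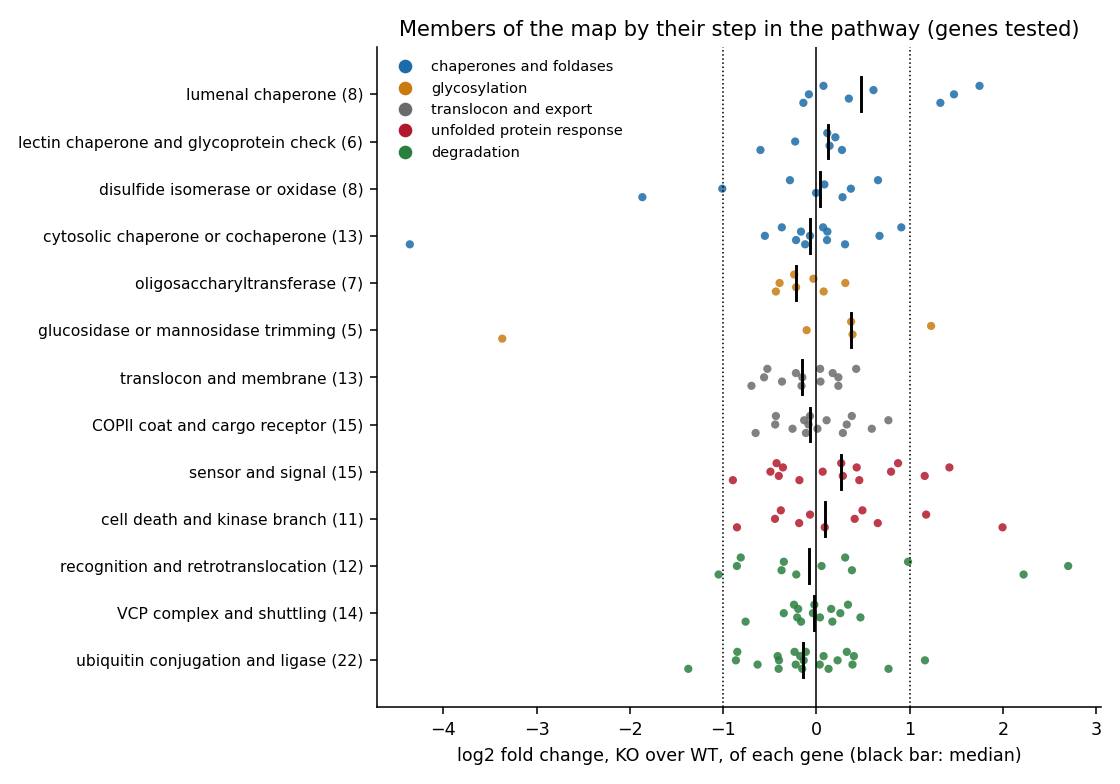
Log2 fold change, KO over WT, of each member compared, in 13 groups by step of the pathway, with the number of genes in brackets, the role in colour, the group median as a black bar and dotted lines at 2-fold. Lumenal chaperones have the highest median (0.48) and the oligosaccharyltransferase the lowest (−0.22), and the translocon and COPII groups stay within 2-fold.

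For N-glycosylation, 1 of 12 genes was 2-fold higher and 1 lower (8.33% each, beside 9.46% and 9.94% of all genes). The median was −0.07 (−0.67 by total counts). The 7 subunits of the oligosaccharyltransferase had the lowest median of the 13 groups, −0.22, with 2 above 0, 5 below and none past 2-fold. The catalytic subunits Stt3a (653 counts in KO and 1006 in WT) and Stt3b (454 and 796) were at −0.03 (−0.18 to 0.11) and −0.22 (−0.39 to −0.05). Ddost, the most abundant subunit per kb, was at −0.24 (828 and 1472 counts), and Dad1 was lowest at −0.43 (378 and 770).

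Trimming of the glycan begins with glucosidase I, encoded by Mogs (chr6:83115496-83118898), which removes the outermost glucose. Mogs had 20 counts in KO and 317 in WT, a log2 fold change of −3.37 (−4.12 to −2.74) or 10.3-fold lower. It shared no word and no exon with another gene. The next enzyme, glucosidase II, did not show a difference of this size. Its catalytic subunit Ganab had 1218 and 1693 counts, at 0.12 (0.01 to 0.22), and its regulatory subunit Prkcsh 536 and 946, at −0.23 (−0.38 to −0.07). Of the mannosidases that follow, Man1c1 was 2-fold higher but had only 41 and 26 counts, so that its interval around 1.23 reached from 0.51 to 2.02. Man1b1 (0.39), Man1a2 (0.37) and Man1a (−0.10) lay within 2-fold.

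At entry and exit none of 28 genes passed 2-fold in either direction, beside 9.46% higher and 9.94% lower of all genes. Values ran from −0.70 to 0.77, with a median of −0.08 (−0.68 by total counts). In the translocon, Sec61a1, the pore subunit, had 1176 and 1968 counts, at −0.15 (−0.26 to −0.05), and Sec61b had 355 and 691, at −0.37 (−0.56 to −0.18). The lowest was Sec61g, a small subunit of the pore, at −0.70 (180 and 440 counts). Rrbp1, a ribosome-binding protein of the rough ER, was highest among 13 translocon and membrane genes at 0.43 (4864 and 5455 counts), which turns below 0 by total counts.

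In export, the 15 genes compared had a median of −0.07 (−0.67 by total counts). The cargo receptor Lman1 (ERGIC-53, which carries clotting factors) had 997 and 1491 counts, at 0.01 (−0.11 to 0.13). Bcap31, a cargo receptor of the ER membrane, was the most abundant of the 28 per kb in WT and was at −0.44 (718 and 1470 counts). The GTPases that start the COPII coat were both below 0, Sar1b at −0.26 (790 and 1422 counts) and Sar1a at −0.65 (531 and 1258). The outer coat genes Sec31a (1172 and 1170 counts, 0.59) and Sec31b (83 and 73, 0.77) were above 0, Sec31a falling to −0.01 by total counts.

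**Figure D3:**
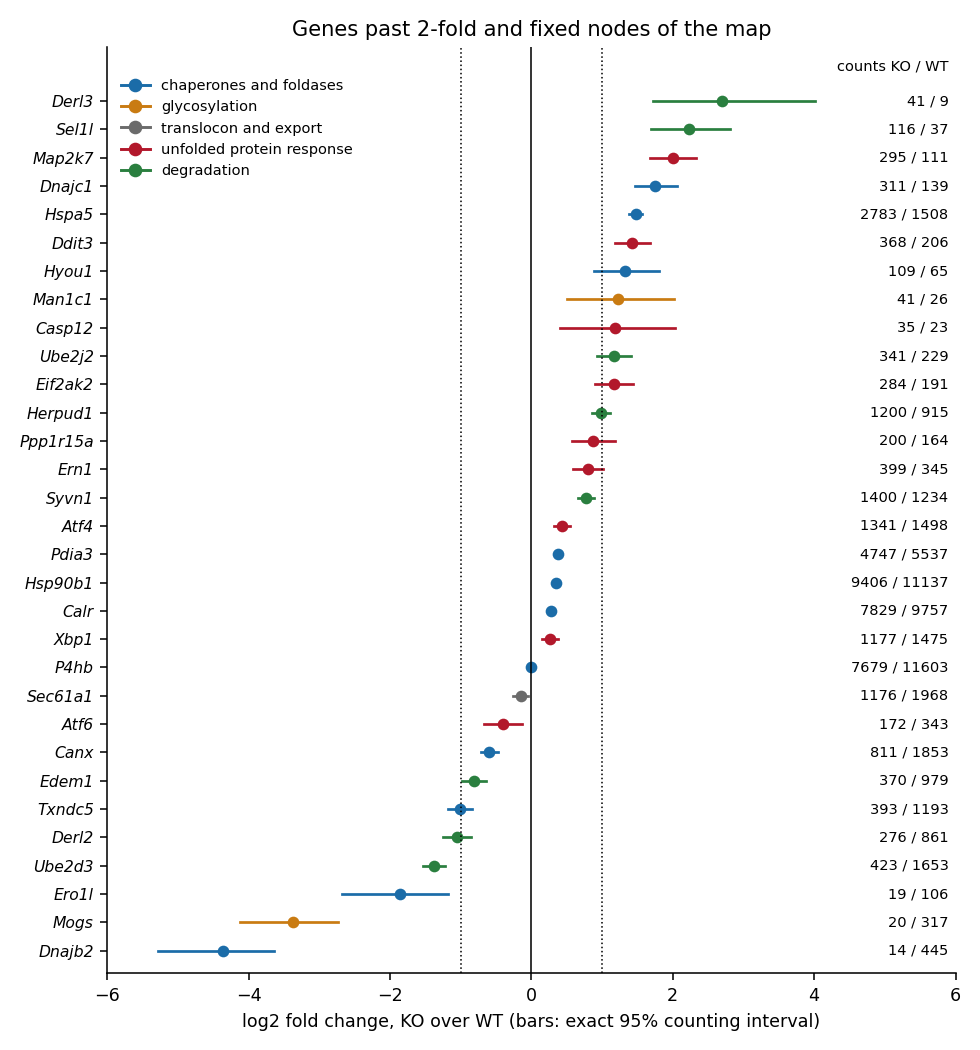
Log2 fold change, KO over WT, with the exact 95% counting interval for the 17 members past 2-fold and for 14 nodes of the pathway, coloured by role, with the counts in KO and WT at the right. Derl3, Sel1l and Map2k7 are highest and Dnajb2 and Mogs lowest; genes with few counts, such as Casp12 (35 and 23), have wide intervals, and dotted lines mark 2-fold.

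Of 26 UPR genes, 4 were 2-fold higher (15.4%, beside 9.46% of all genes). With at least 100 counts, 3 of 22 were (13.6%, beside 4.95%). None was 2-fold lower, beside 9.94% of all genes, or 5.94% of those with at least 100 counts. The median was 0.18 (−0.42 by total counts, where the median of all genes is −0.60). The 4 were Ddit3, Map2k7, Eif2ak2 and Casp12. Of these, Map2k7 is uncertain through an overlapping gene, Eif2ak2 does not respond to the ER, and Casp12 had 35 and 23 counts. The sensors themselves differed in direction. Ern1 (IRE1α, chr11:106394650-106487852) had 399 counts in KO and 345 in WT, a log2 fold change of 0.80 (0.59 to 1.01). Atf6 had 172 and 343 counts, at −0.40 (−0.68 to −0.13), and the proteases that release its active fragment, Mbtps1 (299 and 578 counts, −0.36) and Mbtps2 (31 and 66, −0.49), were below 0 as well, Mbtps2 with an interval that included 0. The PERK gene Eif2ak3, which the annotation does not assign to the map, had 82 and 89 counts, at 0.47 (0.02 to 0.92).

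IRE1 splices the mRNA of Xbp1, which counts per gene cannot show. Total Xbp1 had 1177 counts in KO and 1475 in WT, a log2 fold change of 0.27 (0.16 to 0.38) and −0.33 by total counts. On the branch of eIF2α phosphorylation, Atf4, the transcription factor translated under stress, had 1341 and 1498 counts, at 0.43 (0.33 to 0.54) and −0.17 by total counts. Its target Ddit3 (CHOP, a factor linked to cell death under prolonged stress; chr10:127290774-127296288) had 368 and 206 counts, at 1.43 (1.18 to 1.68), with 0.83 by total counts. Mars, on the opposite strand, covers 3.97% of the exons of Ddit3, and a further Ddit3 identifier that is not listed covers 6.13%. Ppp1r15a (GADD34, which directs the removal of the phosphate from eIF2α) had 200 and 164 counts and lay just inside 2-fold at 0.88 (0.57 to 1.19). Eif2s1, which encodes eIF2α, had 130 and 365 counts, at −0.89 (−1.20 to −0.60).

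Eif2ak2 (PKR, a kinase of eIF2α that responds to double-stranded RNA rather than to the ER) was 2-fold higher, with 284 and 191 counts, at 1.16 (0.90 to 1.44). The other eIF2α kinases of the map, Eif2ak4 (127 and 139 counts, 0.46) and Eif2ak1 (283 and 407, 0.07), were not. In the cell death and kinase branch, Map2k7 (the kinase that activates JNK; chr8:4238740-4251423) had 295 and 111 counts, at 2.00 (1.68 to 2.33). It is uncertain, because 35.2% of its exon bases overlap Gm49320 on the same strand, a gene not listed in the table. The JNK genes Mapk8 (75 and 154 counts, −0.44) and Mapk9 (206 and 353, −0.18) were below 0. Casp12, a caspase of the ER, had 35 and 23 counts, at 1.18 (0.40 to 2.02), and Bcl2, which opposes cell death, had 16 and 44, at −0.85 (−1.79 to −0.01).

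Of 48 degradation genes compared, 3 were 2-fold higher (6.25%, beside 9.46% of all genes) and 2 lower (4.17%, beside 9.94%). Both shares were below those of all genes, and the median was −0.12 (−0.71 by total counts). The highest members of the whole map belong to the membrane complex that extracts misfolded proteins. Derl3 (derlin-3, chr10:75893398-75895941) had 41 counts in KO and 9 in WT, a log2 fold change of 2.70 (1.72 to 4.01) or 6.50-fold. Sel1l, the adaptor of the HRD1 ubiquitin ligase (chr12:91806043-91849157), had 116 and 37 counts, at 2.22 (1.70 to 2.82) or 4.67-fold. Both stayed past 2-fold by total counts, at 2.12 and 1.63, and neither shared a word or an exon with another gene.

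Other parts of the complex were higher by less. Herpud1 (HERP, which recruits factors to HRD1; chr8:94386438-94395377) had 1200 and 915 counts and lay just inside 2-fold, at 0.98 (0.86 to 1.11). Syvn1 (HRD1 itself; chr19:6046576-6053712) had 1400 and 1234 counts, at 0.77 (0.66 to 0.89). By total counts these were at 0.38 and 0.17. Derl3 is also abundant in secretory cells such as plasma cells and pancreatic acinar cells. The 6 other plasma and B cell markers compared summed to 12.5 CPM in KO and 14.5 in WT, with 4 above 0 and 2 below. They ran from Jchain (4 and 22 counts, −1.77) to Cd79a (12 and 4, 2.02). Of 10 acinar markers, 8 had 0 counts in both libraries. The 2 acinar markers with counts were Cela1 (97 and 97, 0.59, interval 0.17 to 1.01) and Cela2a (11 and 20, −0.26). The part of such cells in the counts of Derl3 was not tested.

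The related derlins and the lectins lay on the other side of 0. Derl2 had 276 and 861 counts, at −1.05 (−1.25 to −0.85), and Derl1 had 699 and 1342, at −0.35 (−0.48 to −0.22). Edem1, which hands misfolded glycoproteins to ERAD, had 370 and 979 counts, at −0.81 (−0.99 to −0.64), while its relatives Edem2 (986 and 1141, 0.38) and Edem3 (208 and 253, 0.31) were above 0 by TMM and below it by total counts. The lectin Os9 (691 and 1881 counts) was at −0.85. So of the 12 recognition and retrotranslocation genes compared, 6 were above 0 and 6 below, and their median of −0.08 does not describe them. This group had the widest spread in the plot by step apart from the groups holding Dnajb2 and Mogs.

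Of 22 ubiquitin-conjugating enzymes and ligases, 1 was 2-fold higher and 1 lower (4.55% each, beside 9.46% and 9.94% of all genes). Ube2j2, an E2 enzyme anchored in the ER membrane, had 341 and 229 counts, at 1.16 (0.92 to 1.41), and shares 13.2% of its words with other genes. Its counterpart Ube2j1 had 269 and 537 counts, at −0.40 (−0.62 to −0.19). Ube2d3, an abundant E2 of the cytosol, had 423 and 1653 counts, at −1.37 (−1.53 to −1.22). None of 14 genes of the VCP complex and shuttling passed 2-fold. Vcp, the ATPase that pulls proteins out of the membrane, was at −0.24 (1038 and 1848 counts), though 64.4% of its words occur elsewhere in the transcriptome, mostly in Vcp-rs. Downstream, 33 of 42 proteasome genes compared were below 0, with a median of −0.27.

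Of the 17 members past 2-fold, all 17 had a counting interval that left out 0. Among all genes so had 1121 of the 1283 higher and 1171 of the 1348 lower. All 17 stayed past 2-fold with DESeq2 size factors, upper-quartile scaling and totals without the mitochondrial genes. These scalings put the median of all genes at −0.007, 0.007 and −0.09, shifts too small to change many calls. By total counts, 4 of the 11 higher members stayed past 2-fold. Counting error is not the spread between mice. If mice varied by a biological coefficient of variation of 0.2, an assumed value, edgeR's exact test at a false discovery rate of 0.05 would keep Derl3, Sel1l, Map2k7, Dnajc1, Hspa5 and Ddit3 among the higher genes and Ube2d3, Ero1l, Mogs and Dnajb2 among the lower. At an assumed 0.4 it would keep only Mogs and Dnajb2. With 0.2, the shares of members kept as higher and as lower were close to those of all genes compared, whose counts are given at the end. Being kept at 0.2 therefore does not set the map apart.

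Promoter sequence was then read for what the members share beyond the annotation. The ER stress response element (ERSE) is CCAAT, a spacer of 9 bases and CCACG, bound by NF-Y and, in the UPR, by ATF6 or XBP1. It was sought on both strands from 250 bases before to 50 after the RefSeq start site (GRCm38.p6), a window given for 127 of the 160 members. It occurred in 29 of 18634 genes listed (0.156%) and in 8 of the 127 members (6.30%). The sites are shown because the ERSE is the motif through which UPR factors are known to act. Each is written in the direction of the motif, with CCAAT and CCACG in capitals.

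Derl3: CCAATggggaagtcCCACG
Hspa5: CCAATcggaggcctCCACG
Syvn1: CCAATcggcggtagCCACG
Hsp90b1, upstream site: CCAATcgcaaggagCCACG
Hsp90b1, downstream site: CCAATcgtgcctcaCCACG
Calr: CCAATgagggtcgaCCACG
Pdia6: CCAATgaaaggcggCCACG
Dnajc3: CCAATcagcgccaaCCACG
Canx: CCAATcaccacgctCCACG

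The capitals are the same by construction, and the spacers differ between all 9 sites. All 9 lie before the start site. The site of Hspa5 spans bases −65 to −47 from the start (chr2:34772025-34772043, same strand as the gene). That of Derl3 spans −156 to −138 and runs on the opposite strand (chr10:75893242-75893260), and that of Syvn1 spans −44 to −26 (chr19:6046532-6046550). Hsp90b1 is the member with 2 sites.

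An ERSE did not go with a common difference. Of the 8 members that hold it, 7 were above 0 by TMM and 2 were 2-fold higher, Derl3 (2.70) and Hspa5 (1.48), followed by Syvn1 (0.77). Hsp90b1 (0.35), Calr (0.27), Pdia6 (0.09) and Dnajc3 (0.08) were nearer 0, and Canx was at −0.60. Their median was 0.31, and the 10 other genes compared that hold the motif had a median of 0.24. Of these 10, 1 was 2-fold higher and 3 lower, beside 2 and 0 of the 8 members. Of all genes compared, 9.46% were higher and 9.94% lower, and sets of 8 and 10 genes are too small to tell from these shares. The 3 lower were Zfp57 (13 and 51 counts), Xlr3a (31 and 174) and Xlr3b (0 and 20). Among the 10, Creld2 and Alg12 share the same site, and the sites of Xlr3a and Xlr3b have the same sequence. By total counts only Derl3, Hspa5 and Syvn1 of the 8 members remain above 0. Of the 10 members past 2-fold higher that have a promoter window, 2 held an ERSE, and of the 5 lower ones with a window, 0 did. CCACG alone is common, in 59.1% of member windows and 39.7% of all. Among genes compared only, the shares were nearer, at 60.5% and 50.9%.

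**Figure D4:**
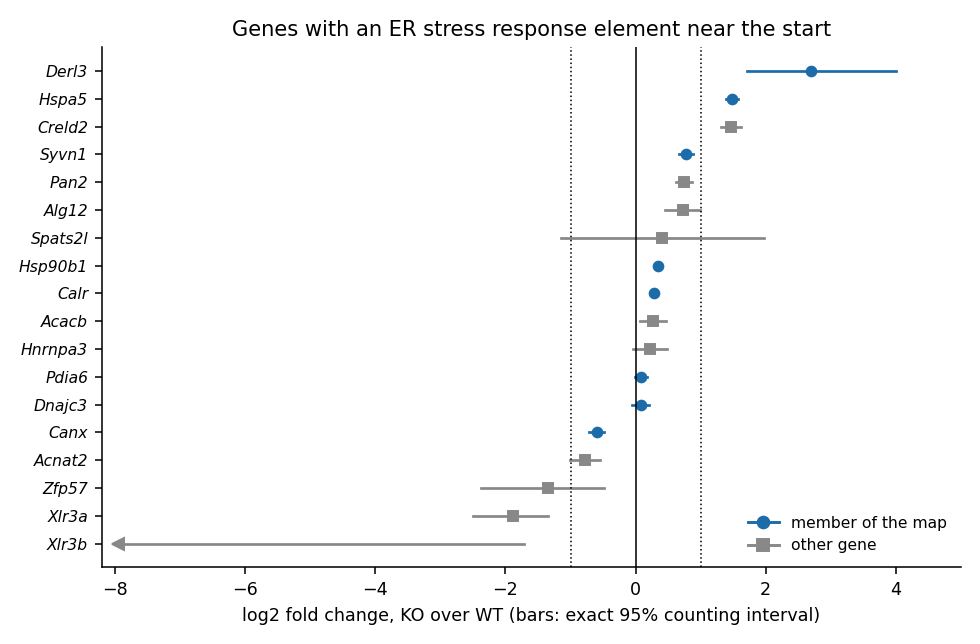
Log2 fold change, KO over WT, with the exact 95% counting interval, of the 18 genes compared that hold an ERSE in the promoter window, as circles for the 8 members and squares for the 10 other genes. Derl3, Hspa5 and Creld2 lie past the dotted 2-fold line at the right; Xlr3b had 0 counts in KO, so that only the interval is drawn, cut at the left.

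Of other motifs of the stress response, none was found in the windows of the 10 higher members. The UPR element TGACG directly followed by TGG was in 6 of 127 member windows (4.72%) and in 0.843% of all. The 6 members were Txndc5 (−1.01), Mapk8 (−0.44), Ube2j1 (−0.40), Vcp (−0.24), Sec24d (0.11) and Sec23a (0.28), with a median of −0.32. Read on the other strand, it contains CCACG. The amino acid response element, TTGCA directly followed by TCA, was in 1 member window, that of Herpud1 at −112 to −105, and in 1.08% of all. Such matches describe letters in a window and not binding.

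The miRNA removed from a single allele in KO is given with its seed, bases 2 to 8, in capitals (RefSeq, GRCm38.p6, chr6:30165962-30165986, minus strand).

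miR-182-5p: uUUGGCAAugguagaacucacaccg

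Its 8-base match TTGCCAAA was sought in the longest annotated 3′ UTR. It was in 6 of 149 members compared (4.03%) and in 5.50% of 12541 genes. Flanked by 8 bases on each side where the UTR allows, the sites were as follows, with the match in capitals.

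Dnajc1: atgagctgTTGCCAAAactcaatg
Pdia4: aaaagtctTTGCCAAAtca
Stt3a: ctctctatTTGCCAAAtgctggta
Rbx1: aaaccctgTTGCCAAAaaaacaaa
Derl1: gctgacttTTGCCAAAgcttggtc
Mapk8: gctgctgaTTGCCAAAtctcagaa

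Of these, Dnajc1 (1.75) and Pdia4 (0.66) were above 0, and Stt3a (−0.03), Rbx1 (−0.17), Derl1 (−0.35) and Mapk8 (−0.44) below, with a median of −0.10. Members without a site had a median of 0.01. The 7-base match was as frequent in the members as in all genes, 13.4% of both.

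Other genes of the ER, which the map does not hold, were taken from lists written from textbook knowledge. Of 116 in the table, 111 were compared, 9 were 2-fold higher (8.11%, beside 9.46% of all genes) and 8 lower (7.21%, beside 9.94%), with a median of 0.01 (−0.59 by total counts). The other lumenal chaperones and foldases among them, 34 compared, held 3 higher (8.82%) and 2 lower (5.88%), with a median of −0.08. Creld2, a chaperone induced by the UPR, was close to Hspa5, with 1052 counts in KO and 575 in WT and a log2 fold change of 1.46 (1.32 to 1.61). Other UPR targets were spread. Sdf2l1, a lumenal partner of BiP, had 418 and 376 counts, at 0.74 (0.54 to 0.95), Manf had 1190 and 1282, at 0.48 (0.37 to 0.60), and Dnajb9 (ERdj4) had 126 and 204, at −0.10 (−0.43 to 0.22). By total counts Manf was also below 0, at −0.12.

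Of 11 stress response genes compared, 2 were 2-fold higher (18.2%, beside 9.46% of all genes) and 1 lower (9.09%, beside 9.94%). With at least 100 counts over both libraries, 1 of 7 was higher and 1 lower. Besides Asns, those past 2-fold were Nupr1 (25 and 17 counts, 1.12) and Creb3l2 (72 and 260, −1.26). Asns, an ATF4 target that makes asparagine, was the highest, with 192 and 33 counts, at 3.11 (2.59 to 3.71). Trib3, another target of ATF4 and CHOP, had 30 and 45 counts, at 0.01 (−0.71 to 0.71), and Chac1 had 4 and 11, at −0.81 (−2.97 to 0.89). Of the 11 genes, 8 were above 0, 6 of them with an interval above 0, and the median was 0.35 (−0.25 by total counts). The highest genes of the lists outside the map were H6pd, which makes NADPH in the ER lumen, with 2519 and 57 counts (6.04), and the ER-phagy receptor Fam134c, with 302 and 12 (5.18). The lowest were Calu, a calcium-binding protein of the lumen, with 23 and 1480 counts (−5.39), and the cargo receptor Tmed2, with 6 and 202 (−4.39). These 4 genes and those of the stress list were chosen for mention after their values were seen.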

How the data were processed

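Per the labels, liver poly(A) RNA was sequenced from a KO and a WT library. The authors deposited read counts per gene, not normalized, and FPKM computed from them. The submitters' processing notes name HISAT2 2.0.4, StringTie and edgeR without their roles, and the build hg38, although the coordinates are those of mouse GRCm38 and are used as such. The counter, its strand setting and the annotation are not given in the sources used here. The length behind the FPKM equalled the summed distinct exons within 0.5% for 66.4% of 7765 genes, so levels were computed per kb of merged exon instead.

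Genes reaching 10 counts in sum over the libraries were scaled by TMM (edgeR 4.0.16, R 4.3.3; prior count 0.5). "Higher" and "lower" mean a 2-fold difference, with no p-value. The steps were tested on simulated data. The planned search for retrieval signals in proteins was not run. Alternatives were DESeq2 1.42.0 size factors, other scalings, filters, prior count, the FPKM (pseudocount 0.1) and an assumed variation between mice. Members, roles and lists were chosen with earlier results of these data known, and Ube2e1, Ube2e2 and Ube2e3 were assigned to degradation after the table was read. Named genes are members past 2-fold with at least 100 counts, the 2 of highest WT FPKM in each role, and known nodes of the pathway; others were named after their values were seen. Some members are not reported here by name. No gene-by-gene test of genotypes is possible with 1 library each.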

Additional observations from a re-analysis of the deposited data

How the results depend on the processing

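No paired analysis was possible because KO and WT have 1 library each, and for that reason no replicate could be left out. With totals of all counts, or with the authors' FPKM, every median moved down with that of all genes, to −0.60 and −0.54. The median of the members went from −0.003 to −0.60 and −0.55, that of chaperones and foldases from 0.09 to −0.52 and −0.51, of degradation from −0.12 to −0.71 and −0.65, of glycosylation from −0.07 to −0.67 and −0.66, of translocon and export from −0.08 to −0.68 and −0.67, and of the UPR from 0.18 to −0.42 and −0.41. Members 2-fold higher went from 11 to 4 and 4, those lower from 6 to 30 and 21, and the higher share of the members past 2-fold from 64.7% to 11.8% with totals. ER genes outside the map went from 9 higher and 8 lower to 5 and 28 with totals and 4 and 27 with FPKM. Of all genes, 1283 higher and 1348 lower became 624 and 3605 with totals, 405 and 2934 with FPKM, 2269 and 2763 at a minimum of 1 count and 656 and 728 at a minimum of 50. With an assumed variation of 0.2, 6 members were higher, with 5 higher and 4 lower outside the map and 488 higher and 444 lower of all genes. With 0.4, 0 members were higher and 2 lower, with 2 and 2 outside the map and 59 and 58 of all genes. DESeq2 size factors, the upper quartile, totals without mitochondrial genes, a prior count of 5 and the other minimum counts left the counts of members within 1.5 times, and no alternative reversed a named gene that was past 2-fold. Depth limits genes such as Derl3, Casp12 and Man1c1, each with 41 counts or fewer in either library.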
